A study of Mus musculus with 80 samples.

Results

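Granulocyte-monocyte-primed cells were examined in the hematopoietic stem and progenitor cells (HSPCs) that the donors had given rise to 14 days after transplantation of old CD150low or old CD150high hematopoietic stem cells (HSCs). They were selected on measured transcripts, as cells with at least 2000 detected genes, at most 5% mitochondrial UMIs, and at least 10 UMIs of *Elane* and *Ctsg* together per 10000 UMIs of the cell, where a UMI is a molecular tag that counts 1 captured transcript. By this rule 157 of 4339 kept cells were primed, 89 of 2406 from CD150low HSCs and 68 of 1933 from CD150high HSCs. The cells were chosen by *Elane* and *Ctsg*, so their levels, and those of every other gene in the same cells against the rest, are a description and carry no test.

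The donors were old male C57BL/6 mice (CD45.2) of 20 to 24 months per the sample sheet, and 22 to 24 months per the methods. Their HSCs were sorted as Lin-Sca-1+c-Kit+ (LSK) CD48-CD34-CD150+ cells, split by low or high CD150 (*Slamf1*), and given with Sca-1-depleted CD45.1 helper cells to lethally irradiated young CD45.1 recipients. On day 14 the CD45.2 LSK cells of the bone marrow were sorted and sequenced as 1 10x library per group, and the number of mice behind each library is not stated. The LSK gate keeps Sca-1+ cells, so that classical granulocyte-monocyte progenitors, which lack Sca-1, lie outside it. With 1 library per group there is no test between CD150low and CD150high, and every interval below covers counting error only. Fresh young (2 to 4 months in the sample sheet) and old HSCs, also 1 library each, and bulk RNA-seq, 3 libraries per group, were used for comparison. The bulk groups were fresh old HSCs of the lowest (G1) and highest (G4) CD150, and old CD150low or CD150high HSCs taken 4 days after transplantation.

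Neutrophils and monocytes arise from HSCs through multipotent progenitors that begin to transcribe the proteins of azurophil granules while they still carry stem and progenitor transcripts. Neutrophil elastase (*Elane*), cathepsin G (*Ctsg*), proteinase 3 (*Prtn3*) and myeloperoxidase (*Mpo*) are made at the promyelocyte stage and stored in these granules, and serglycin (*Srgn*) is the proteoglycan that packs them. PU.1 (*Spi1*), C/EBPα (*Cebpa*) and RUNX1 are known to drive these genes, C/EBPε (*Cebpe*) and GFI1 mark the granulocytic branch, and IRF8 the monocytic branch. Secondary granule genes such as *Ltf* and *Camp* follow later in neutrophil maturation.

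Where the 5 leading granule-associated genes lie, and the 250 bases in front of each start, are shown because these genes were high together in the same cells. The genes and sequences are those of RefSeq on GRCm38.p6, each written 5′ to 3′ along the gene's own strand, and capitals mark matches to the motifs searched. *Elane* (promoter chr10:79886062-79886311, plus strand) and *Prtn3* (chr10:79879417-79879666, plus strand) are neighbours with 3138 bases between them. *Ctsg* (chr14:56102575-56102824, minus strand), *Mpo* (chr11:87793534-87793783, plus strand) and *Ms4a3* (chr19:11640852-11641101, minus strand), a membrane protein of granulocyte-monocyte progenitors, lie elsewhere.
Elane: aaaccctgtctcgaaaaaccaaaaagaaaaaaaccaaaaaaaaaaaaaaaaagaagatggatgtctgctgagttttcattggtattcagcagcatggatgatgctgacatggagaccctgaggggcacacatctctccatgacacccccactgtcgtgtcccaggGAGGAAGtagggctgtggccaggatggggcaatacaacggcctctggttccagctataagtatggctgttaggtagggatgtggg
Prtn3: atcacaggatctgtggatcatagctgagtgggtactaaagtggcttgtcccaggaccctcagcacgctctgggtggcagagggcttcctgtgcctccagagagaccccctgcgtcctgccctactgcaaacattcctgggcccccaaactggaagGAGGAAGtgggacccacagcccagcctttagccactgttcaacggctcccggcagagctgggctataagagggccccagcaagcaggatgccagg
Ctsg: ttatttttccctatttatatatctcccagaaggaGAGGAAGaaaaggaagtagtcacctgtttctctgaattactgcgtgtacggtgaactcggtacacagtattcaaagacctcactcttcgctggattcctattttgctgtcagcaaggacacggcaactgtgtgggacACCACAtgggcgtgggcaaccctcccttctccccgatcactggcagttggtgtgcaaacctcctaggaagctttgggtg
Mpo: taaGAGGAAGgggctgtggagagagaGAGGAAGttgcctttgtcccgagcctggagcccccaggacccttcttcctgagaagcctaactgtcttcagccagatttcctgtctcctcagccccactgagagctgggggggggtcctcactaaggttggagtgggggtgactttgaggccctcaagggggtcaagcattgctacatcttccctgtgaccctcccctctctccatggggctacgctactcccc
Ms4a3: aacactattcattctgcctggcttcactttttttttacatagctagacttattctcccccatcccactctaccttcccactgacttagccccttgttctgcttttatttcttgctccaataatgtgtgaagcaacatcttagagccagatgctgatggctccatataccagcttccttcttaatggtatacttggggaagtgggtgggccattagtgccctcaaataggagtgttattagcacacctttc
A PU.1 motif (GAGGAAG, searched on both strands) was in 4 of the 5 sequences and in 10.6% of 32851 RefSeq promoters of the same length. It began 85 bases before the *Elane* start, 95 before *Prtn3*, 216 before *Ctsg*, and 247 and 224 before *Mpo*. A RUNX motif (TGTGGT) was found once, on the opposite strand 79 bases before the *Ctsg* start, and in 14% of all promoters. A C/EBP motif (TTGCNNAA) was in 0 of the 5 and in 9.56% of all promoters. No motif match overlapped another, and a match or its absence in this window is a description of letters and not of binding.

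Among the genes beside these, transcripts were unevenly spread. *Cfd*, 2.6 kb beyond *Elane*, had 0 UMIs in the primed cells of both libraries. *Plppr3*, 4.7 kb before *Prtn3*, stood at 60.9 and 61.0 CPM (UMIs of the gene per 1000000 UMIs summed over the cells) in CD150low- and CD150high-derived primed cells. The genes on either side of *Ctsg* were *Mcpt8*, a basophil protease gene 14.4 kb away with 337 and 717 CPM, and the granzyme gene *Gzme* with 0 UMIs. *Ms4a2*, a chain of the IgE receptor and the neighbour of *Ms4a3* at 5.7 kb, stood at 16.7 and 68.8 CPM. Most UMIs of *Mcpt8* and *Ms4a2* lay in the few primed cells rich in basophil or eosinophil transcripts that are described below. In the remaining primed cells *Mcpt8* stood at 71.5 and 61.1 CPM and *Ms4a2* at 2.50 and 1.87 CPM.

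The share of primed cells was 3.70% (exact 95% interval 2.98 to 4.53) in CD150low-derived HSPCs and 3.52% (2.74 to 4.44) in CD150high-derived HSPCs. The difference, CD150high minus CD150low, was -0.181 percentage points (Newcombe 95% interval -1.29 to 0.963, over cells of 1 library each and thus for counting error only). No cell reached the threshold in fresh HSCs. The counts were 0 of 1104 young cells (exact 95% interval 0 to 0.334%) and 0 of 2758 old cells (0 to 0.134%). The order of both libraries turned with the threshold. At 5 UMIs per 10000 the shares were 6.07% and 4.81% for CD150low and CD150high, and at 20 per 10000 they were 2.12% and 2.33%. Below the threshold the libraries lay further apart. At 1 to under 10 per 10000 were 272 CD150low-derived (11.3%) and 107 CD150high-derived kept cells (5.54%). Above 0 and under 1 the order was the other way, with 376 (15.6%) and 421 (21.8%) cells.

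The primed cells held more UMIs than the rest. Their median was 30165 UMIs and 5086 genes in the CD150low-derived library against 19158 UMIs and 4435 genes in the other kept cells, and 48088.5 UMIs and 5954 genes in the CD150high-derived library against 30403 UMIs and 5562 genes. Scrublet marked 8 and 4 of the kept cells as doublets, a low rate at which undetected doublets remain possible, and 0 of the primed cells, and doublets were left in. The 2 libraries shared 12 barcodes, of which 3 were kept cells in both and 0 were primed cells. The median mitochondrial share was 2.74% and 2.60% in primed cells and 3.07% and 2.86% in the others.

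The range of *Elane* plus *Ctsg* within the primed cells was wide. In CD150low-derived cells it ran from 10.3 through a median of 26.2 to 423 UMIs per 10000, and in CD150high-derived cells from 10.1 through 37.0 to 409. The cells nearest the threshold held 10.3, 10.4 and 10.6 (inside) and 9.98, 9.90 and 9.90 (outside) per 10000 in the CD150low-derived library, and 10.1, 10.1 and 10.2 (inside) and 9.95, 9.89 and 9.76 (outside) in the CD150high-derived library. Between 8 and 10 per 10000 lay 12 and 10 cells, and between 10 and 12 lay 10 and 7. The primed cells are therefore a range cut from a continuous score, with no gap at the threshold.

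Along this range *Ctsg* was found at lower scores than *Elane*. Every primed cell held a *Ctsg* UMI, whereas 59 of 89 CD150low-derived and 46 of 68 CD150high-derived primed cells held an *Elane* UMI. In the lowest part of the range, 10 to under 30 per 10000 (49 and 30 cells), *Elane* made up 2.17% and 4.01% of the *Elane* plus *Ctsg* UMIs. The 30 to under 100 part (15 and 16 cells) gave 33.6% and 25.8%, and at 100 and more (25 and 22 cells), where every cell held both transcripts, *Elane* made up 58.3% and 52.3%. Cells near the threshold thus met it mainly through *Ctsg*. Just below the threshold, cells with 1 to under 10 per 10000 held 361 and 376 CPM of *Ctsg* and 8.06 and 5.95 CPM of *Elane*, but in those above 0 and under 1 *Elane* made up 18.6% and 26.5%, so its share did not rise steadily from 0.

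Cells rich in basophil or eosinophil transcripts (at least 10 UMIs of *Mcpt8*, *Prss34*, *Ms4a2*, *Epx* and *Prg2* per 10000) were most frequent in the middle of this range. They made up 5 of 15 and 7 of 16 primed cells at 30 to under 100 per 10000, 0 of 49 and 4 of 30 at 10 to under 30, and 0 of 25 and 1 of 22 at 100 and more. Without them the *Elane* share was 2.17% and 3.02%, 38.6% and 31.8%, and 58.3% and 52.8% from the lowest to the highest part.

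**Figure D1:**
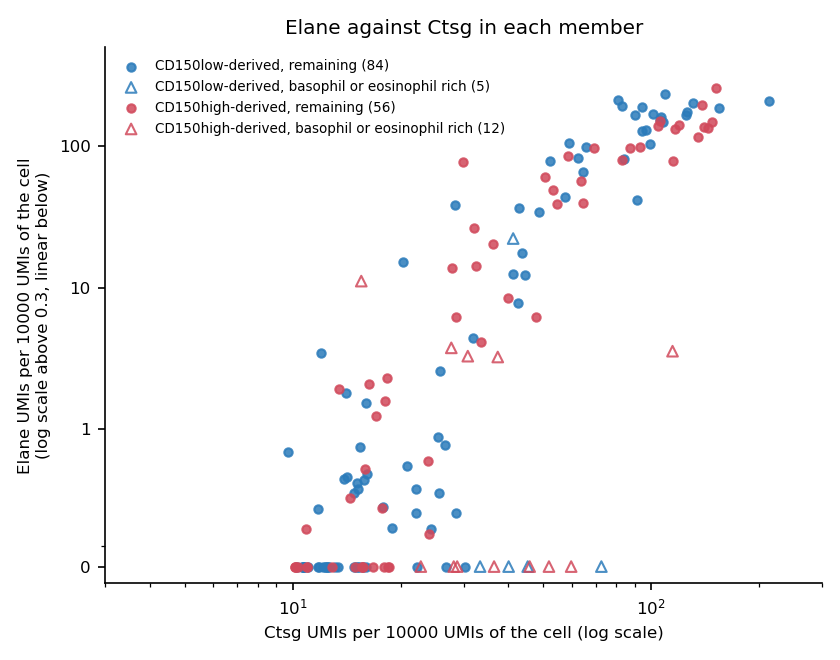
Each point is 1 primed cell, with its Ctsg UMIs per 10000 (log scale) against its Elane UMIs per 10000 (log scale above 0.3, linear below). Blue is CD150low-derived and red CD150high-derived, and open triangles are the 5 and 12 cells rich in basophil or eosinophil transcripts. Cells under 30 Ctsg UMIs per 10000 mostly sit at or near 0 Elane, and Elane and Ctsg are of like size in the upper right.

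Free RNA in the droplets was read from cells that should lack these genes. Erythroid-primed kept cells (at least 5 UMIs of *Klf1*, *Car1* and *Ermap* per 10000) held 0 *Elane* UMIs in 17 cells of median 21930 UMIs in the CD150low-derived library. In the CD150high-derived library 3 of 19 such cells (median 82303 UMIs) held 1 *Elane* UMI, or 2.17 CPM, against 3428 CPM in primed cells. *Ctsg* UMIs were in 17.6% and 26.3% of the erythroid-primed cells (11.8 and 3.61 CPM), and *Ms4a3* UMIs in 35.3% and 47.4% (21.2 and 7.22 CPM). *Elane* UMIs were in 5.65% and 8.58% of the other kept cells, and with every cell thinned to 10878 UMIs in 3.12% and 3.45%, against 48.2% and 56.7% of the primed cells (85 of 89 and 67 of 68 were deep enough). At the same thinned depth *Elane* was in 0 of 15 and 0 of 19 erythroid-primed cells. The other kept cells held 61.3 and 35.7 CPM of *Ctsg* and 3.00 and 2.79 CPM of *Elane*, a different ratio from that of barcodes with under 500 genes, which held 384 and 265 CPM of *Ctsg* and 245 and 163 CPM of *Elane*.

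Genes of granule proteins were higher in primed cells than in the other kept cells of the same library. Of 8160 genes with at least 10 CPM, 195 (2.39%) were over 2-fold higher in both libraries and 388 (4.75%) over 2-fold lower in both. Of the 13 granule proteins, 9 were higher, *Elane* and *Ctsg* among them, and 0 lower, with a median log2 ratio of 3.26 and 4.08 in the CD150low- and CD150high-derived libraries against -0.15 and -0.14 over all genes. *Mpo* stood at 2788 CPM in CD150low-derived and 2374 CPM in CD150high-derived primed cells, and at 44.3 and 26.9 CPM in the others. Its median per cell was 13.2 and 17.7 UMIs per 10000, the highest cell held 104 and 92.9, and 87 of 89 and 65 of 68 primed cells held at least 1 *Mpo* UMI. Of the other kept cells, 25.3% and 20.2% held one.

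*Prtn3* behaved differently from its neighbour *Elane*. It stood at 5313 and 5492 CPM in primed cells, but 411 and 282 CPM were present in the other kept cells, where 94.7% and 92.2% of cells held a *Prtn3* UMI. Fresh HSCs held 410 (young) and 844 CPM (old) of *Prtn3*, beside 0.23 and 0.34 CPM of *Elane*. The erythroid-primed cells held 44.7 and 26 CPM of *Prtn3*. *Srgn* was likewise broad, with 2370 and 2359 CPM in primed and 1350 and 1213 CPM in other cells. *Ms4a3* (1080 and 1250 CPM against 49.8 and 55.2), the serine protease *Prss57* (179 and 172 against 14.9 and 7.71) and cystatin F (*Cst7*; 147 and 157 against 15.3 and 9.29) were higher per UMI in primed cells but not confined to them. *Ms4a3* UMIs were in 86 of 89 and 67 of 68 primed cells, and in 821 of 2317 and 750 of 1865 others. *Serpinb1a*, an inhibitor of neutrophil serine proteases, stood at 560 and 505 CPM against 305 and 191, and cathepsin C (*Ctsc*), which trims the granule proteases to their active form, at 35.5 and 45.6 against 39.3 and 38.2.

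Transcription factors of the lineage followed the granule genes in part. Of 13 measured, 7 were over 2-fold higher in primed cells of both libraries and 0 lower. *Cebpa* stood at 45.9 and 63.0 CPM in primed and 8.53 and 6.14 CPM in other cells, *Cebpd* at 73.1 and 70.2 against 13 and 10.2, and *Gfi1* at 49.4 and 44.1 against 12.9 and 6.34. *Spi1* differed less, with 201 and 199 against 118 and 88.6 CPM. *Myb*, a factor of cycling progenitors, stood at 377 and 386 against 336 and 268, and *Runx1* at 88.8 and 94.3 against 88.9 and 103 CPM. *Cebpe* was at 63.4 and 64.5 CPM in primed cells and at 0.38 and 0.20 CPM elsewhere, with a UMI in 30 of 89 and 28 of 68 primed cells.

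Receptors and monocyte genes were also higher. Of 12 granulocyte-monocyte receptors 8 were over 2-fold higher in both libraries, led by *Clec12a* (227 and 206 CPM against 10.2 and 3.78), an inhibitory lectin of myeloid cells. *Csf2rb*, the shared chain of the GM-CSF, IL-3 and IL-5 receptors, stood at 41.4 and 54.5 against 16.1 and 12.3 CPM, and *Csf3r*, the G-CSF receptor, at 38.3 and 42.7 against 28.8 and 19.7. Of 12 monocyte genes 9 were higher in both, among them *Ly6c2* (218 and 180 against 0.71 and 0.31 CPM), *F13a1* (46.6 and 37.3 against 0.98 and 0.63) and *Irf8* (58.1 and 52.4 against 12.3 and 6.45). *Csf1r*, the M-CSF receptor, stood at 10.8 and 9.46 against 1.03 and 0.96 CPM, with a UMI in 22.5% and 26.5% of primed and 1.60% and 2.36% of other cells.

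Late neutrophil genes were split. Of 6 measured, 5 were higher in both libraries: *Cebpe*, *Lcn2* (42.1 and 61.6 CPM in primed cells), *S100a8* (479 and 141), *S100a9* (92.2 and 8.60) and *Cybb* (19.5 and 27.5). *Ltf* and *Mmp9* had 0 UMIs in primed cells of both libraries, and *Camp* had 1 UMI in each. The *S100a9* level of CD150low-derived cells came to 70.2% from 1 cell, and the *S100a8* level to 39.5%.

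Outside the lists, the genes that stood furthest above the other kept cells included haptoglobin (*Hp*, 240 and 209 against 0.44 and 0.56 CPM), *Wfdc21*, *Cldn15*, *Trem3*, *Igsf6*, *Dmkn* and *Clec5a*. Ranked by the weaker of both libraries, the highest ratios were those of *Prg2*, *Epx* and *Prg3*, granule proteins of eosinophils, but 1 cell in each library held nearly all of their UMIs (100% and 99.9% for *Prg2*). HSC, erythroid and megakaryocyte genes were lower, whereas of 11 basophil, mast cell and eosinophil genes 10 were over 2-fold higher in both libraries and 1 lower. Of 16 HSC genes 15 were over 2-fold lower in both libraries, of 11 erythroid genes 10, and of 8 megakaryocyte genes 7. Among the lowest were *Aldh1a1* (1.39 and 2.58 against 49.8 and 84.6 CPM), *Tcf15* (0.35 and 0.86 against 12.3 and 34.8), *Nkx2-3*, *Bex4*, *Vwf*, *Cavin2* and *Pdzk1ip1*, and *Car1*, with 0 UMIs in CD150low-derived and 1 UMI in CD150high-derived primed cells. *Hlf*, a transcription factor of HSCs, had a UMI in 39 of 89 and 22 of 68 primed cells. It stood at 37.9 and 13.5 CPM against 199 and 108 CPM in the others. With cells thinned to equal depth, *Hlf* was in 23.5% and 7.46% of primed cells. In the 15 and 19 erythroid-primed cells of that depth it was in 6.67% and 5.26%. The shares of primed and erythroid-primed cells lay close together in the CD150high- but not in the CD150low-derived library, over few erythroid-primed cells. Whether *Hlf* UMIs in primed cells came from free RNA was not tested.

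**Figure D2:**
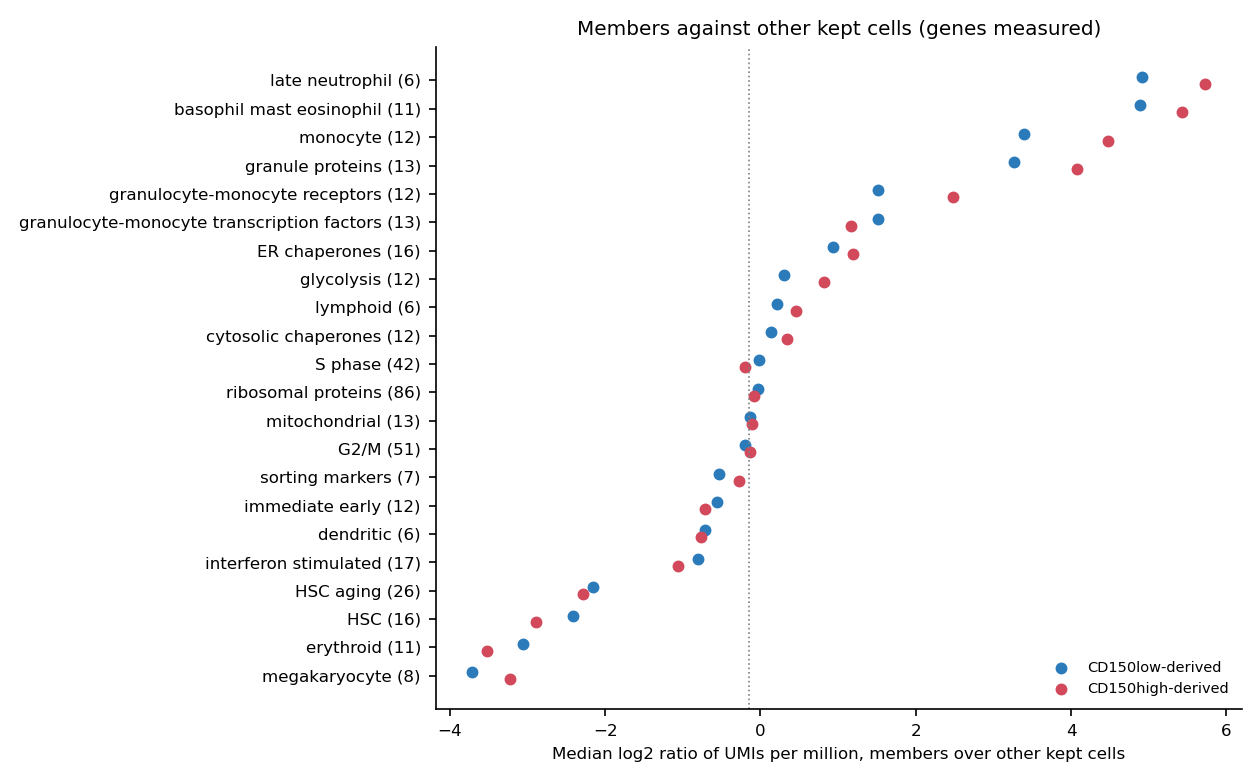
The x axis is the median log2 ratio of CPM in primed over other kept cells for each gene list (members in the picture are the primed cells), blue for the CD150low- and red for the CD150high-derived library, with the number of genes measured in brackets and all genes (-0.15) as the dotted line. Granule, late neutrophil, monocyte and basophil lists lie to the right, and HSC, erythroid and megakaryocyte lists to the left, in both libraries.

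Of 7 sorting markers measured, 2 were over 2-fold lower in primed cells of both libraries and 0 higher. *Ly6a*, which encodes Sca-1, stood at 73.1 and 66.2 CPM against 214 and 223 CPM in the other kept cells, with a UMI in 55 of 89 and 38 of 68 primed cells. *Kit* stood at 83.2 and 70.5 against 138 and 113 CPM. *Cd48* was found in 86 of 89 and 68 of 68 primed cells. At unequal depth, it was also in 75.7% and 57.9% of the other kept cells. Of the erythroid-primed cells, 12 of 17 and 19 of 19 held a *Cd48* UMI. *Slamf1* was found in 1 of 89 and 9 of 68, or 0.35 and 2.87 CPM against 17.5 and 36.9 CPM in the others, so the transcript of the donor sorting marker was low in primed cells of both origins.

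The levels of these genes changed along *Elane* plus *Ctsg* in different shapes, which are a description because that score orders the cells. *Mpo* climbed through every part of the range, from 16.2 CPM in CD150low-derived cells without *Elane* or *Ctsg* to 867 (10 to under 30), 3262 (30 to under 100) and 6369 CPM (100 and more), and in CD150high-derived cells from 8.63 to 792, 2162 and 4997. *Prtn3* and *Ms4a3* followed the same course. *Cebpe* and *S100a8* were highest at the upper end. *Cebpe* stood at 0 and 8.80 CPM at 10 to under 30 per 10000, and at 197 and 173 CPM at 100 and more. Without the 4 CD150high-derived cells rich in basophil or eosinophil transcripts at 10 to under 30, the 8.80 CPM became 1.22 CPM. *S100a8* stood at 5.77 and 11.4 CPM at 30 to under 100 and at 1611 and 445 at 100 and more.

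*Irf8* had the opposite course at the upper end. It was highest at 30 to under 100 per 10000, with 127 and 150 CPM, and stood at 4.69 and 9.22 CPM at 100 and more. The monocyte genes *Ly86* (80.8 and 62.8 CPM against 1.17 and 0.92 CPM), *F13a1* (179 and 116 against 36.4 and 39.6) and *Csf1r* (37.5 and 15.7 against 2.35 and 4.61) shared this peak, and *Gfi1* did not, with 40.4 and 27.1 CPM at 30 to under 100 and 119 and 95 at 100 and more. As 5 of 15 and 7 of 16 cells of the 30 to under 100 part were rich in basophil or eosinophil transcripts, its levels were also taken without them. They were then 162 and 208 CPM for *Irf8*, 103 and 87.3 for *Ly86*, and 51.5 and 33.7 for *Gfi1*. Both factors were found together in 19 of 89 and 13 of 68 primed cells, and *Cebpe* with *Irf8* in 6 and 4. Of the *Irf8* and *Ly86* UMIs, 18.6% and 39.2% in CD150low-derived and 18% and 53.3% in CD150high-derived primed cells came from the 1 cell that held most.

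Progenitor markers peaked at lower scores than the granule genes. *Cd34* stood at 293 and 140 CPM in cells without *Elane* or *Ctsg*, at 462 in both libraries at 1 to under 10 per 10000, and at 63.4 and 72.8 CPM at 100 and more. *Cd48* had a similar course, with 386 and 397 CPM at 1 to under 10 and 156 and 150 at 100 and more. *Ly6a*, *Meis1*, *Mecom* and *Procr* were lower in each part of the range from 0 to 10 to under 30 per 10000 in both libraries. *Meis1*, for example, stood at 199 and 211 CPM without *Elane* or *Ctsg* and at 7.04 and 13.8 CPM at 100 and more. The summed G2/M list held 8842 and 10242 CPM at 10 to under 30, 4749 and 7716 at 30 to under 100, and 6585 and 7726 at 100 and more. Without the basophil- and eosinophil-rich cells the 30 to under 100 part held 5212 and 9181 CPM, still the lowest of the 3 in CD150low-derived but not in CD150high-derived cells. *Mki67* stood at 369 and 479 CPM at 10 to under 30 and at 117 and 232 at 100 and more.

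**Figure D3:**
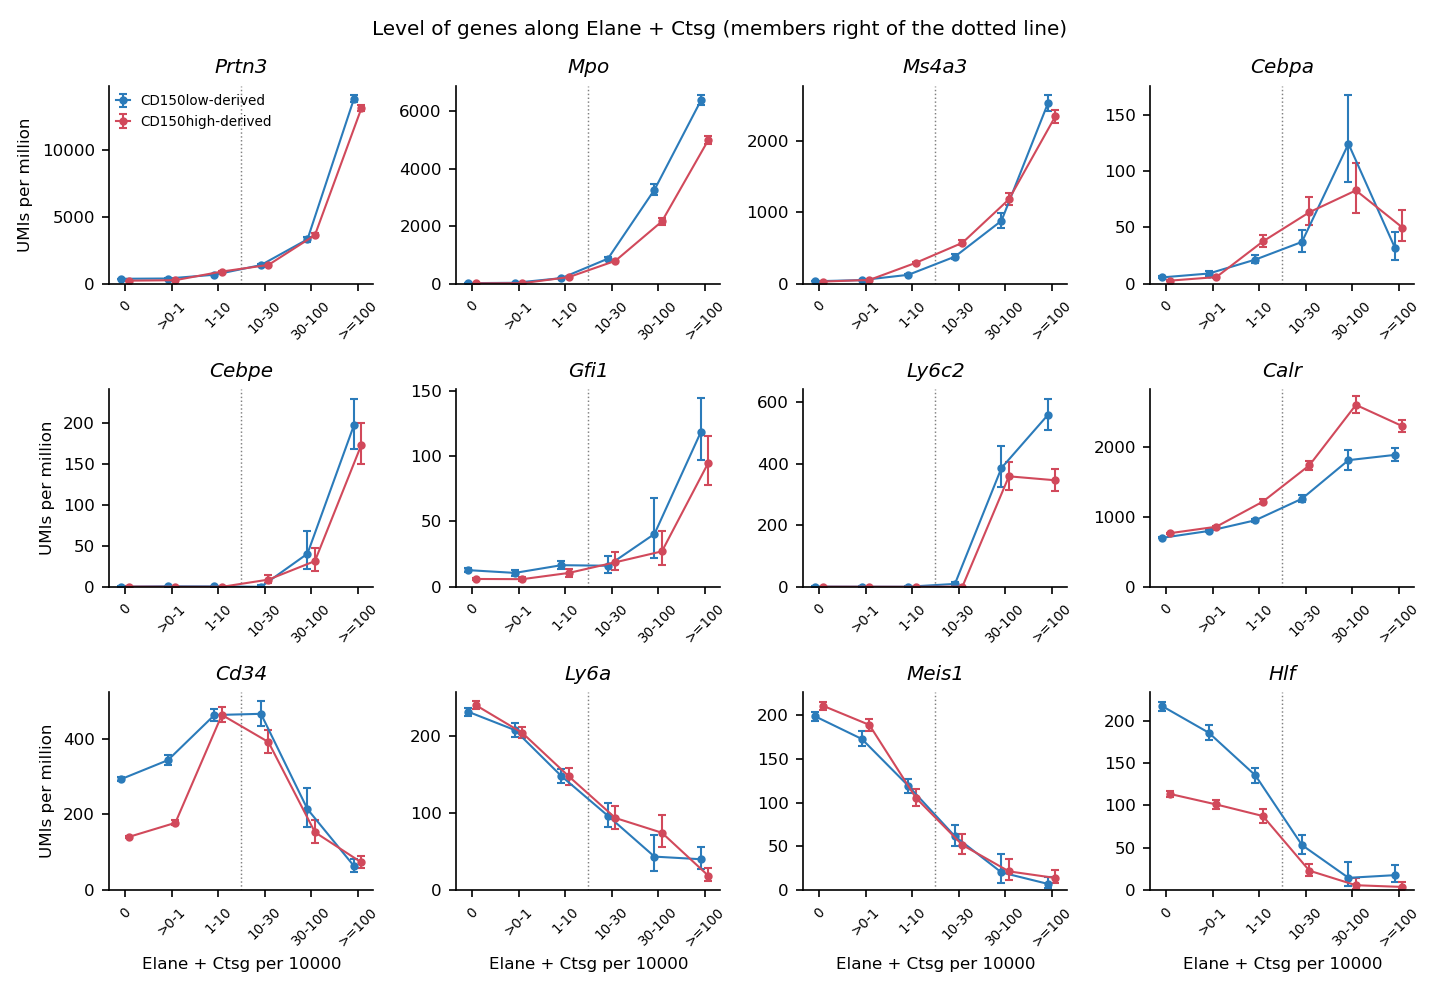
Each panel shows the CPM of 1 gene (linear axis from 0) over 6 ranges of Elane plus Ctsg UMIs per 10000, with exact Poisson 95% intervals, and primed cells right of the dotted line. Prtn3, Mpo, Ms4a3, Cebpe and Gfi1 are highest at 100 and more, Cd34 peaks at 1 to under 30, and Ly6a, Meis1 and Hlf are lower in primed than in other cells.

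Across single primed cells, the genes whose level followed *Elane* plus *Ctsg* most closely were *Ms4a3* (Spearman rho 0.870 over 89 CD150low-derived and 0.905 over 68 CD150high-derived cells), *Igsf6* (0.815 and 0.847), *Mpo* (0.816 and 0.796), *Hp*, *Ap3s1*, *Gsr* (glutathione reductase), *Sec61b* (a subunit of the endoplasmic reticulum translocon), *Cebpe*, *Msrb1* and *Clec12a*, out of 7968 genes. All 10 lay between 0.762 and 0.905 in both libraries. The most negative in both libraries were *Cd34* (-0.77 and -0.76) and *Ctla2a* (-0.71 and -0.77), ranked by the weaker of both values. The cells of a library share their preparation and the total used for scaling. The score itself correlated with the UMI total at -0.0522 and -0.181, and with the mitochondrial share at -0.255 and -0.267.

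Of 16 endoplasmic reticulum (ER) chaperones, which fold secreted and granule proteins, 5 were over 2-fold higher in primed cells of both libraries and 0 lower. Their sum climbed in every part of the range, from 3665 to 10157 CPM in CD150low-derived and from 4253 to 12434 CPM in CD150high-derived cells, and within the primed cells also without those rich in basophil or eosinophil transcripts (5148, 7312 and 10157 CPM, and 6630, 10174 and 12363 CPM). *Hspa5* (BiP) stood at 594 and 932 CPM in primed and 248 and 277 CPM in other cells, *Calr* at 1509 and 2080 against 755 and 823, and *Sdf2l1* at 239 and 348 against 58.6 and 91.0.

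CD150high-derived primed cells were then compared with CD150low-derived ones. Of 7363 genes with a mean of at least 10 CPM in primed cells, 223 (3.03%) were over 1.5-fold higher and 173 (2.35%) over 1.5-fold lower in CD150high-derived cells. With a median-of-ratios size factor in place of the UMI total the counts were 145 higher and 252 lower, and with the 4 leading granule genes and the mitochondrial and ribosomal genes left out of the total 211 and 397, so the balance of directions rests on the scaling. The median log2 ratio over all genes was 0.07. The same ratio in the other kept cells is given beside the list medians and some of the genes, since a difference between libraries that is also present there is not particular to primed cells.

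Granule genes are given as a description, since cells of both origins had passed the same threshold on 2 of the 13. *Elane* itself differed by -0.32 on the log2 scale (4277 and 3428 CPM). Of the 13 granule proteins 0 were over 1.5-fold higher and 1 lower (*Lyz2*, 162 and 94.0 CPM), with a median log2 ratio of -0.01, against -0.60 for the same genes in the other kept cells. *Prtn3* differed by 0.05 on the log2 scale (0.02 to 0.08), *Ms4a3* by 0.21 (0.14 to 0.28) and *Mpo* by -0.23 (-0.28 to -0.19, and -0.72 in the other kept cells). The medians of the transcription factors and late neutrophil genes were -0.02 and -0.01, against -0.35 and -1.19 in the other cells, and those of monocyte genes -0.23 against -0.72. Of the 6 late neutrophil genes measured at 10 CPM 2 were over 1.5-fold lower, *S100a8* (479 and 141 CPM) and *S100a9* (92.2 and 8.60 CPM), and all 15 listed genes summed to 721 and 320 CPM. For the receptors the median of -0.17 (-0.58 in other cells) turned to 0.08 as a mean over cells and to 0.18 with cells thinned.

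Single factors and receptors differed more. *Id1*, an inhibitor of helix-loop-helix factors, stood at 28.2 CPM in CD150low- and 56.7 CPM in CD150high-derived primed cells (log2 ratio 1.01, 0.63 to 1.40), but differed further in the other kept cells (7.02 and 27.6, log2 ratio 1.97). *Cebpa* differed by 0.46 (0.14 to 0.78), and by -0.47 in the other cells. The chemokine receptor gene *Ccr2* stood at 25.8 and 45.9 CPM (log2 ratio 0.83, 0.43 to 1.25, and -0.85 in the other cells), with a UMI in 28.1% and 50.0% of primed cells of unequal depth. *Sox4*, a progenitor factor, stood at 245 and 152 CPM (log2 ratio -0.69, and -0.94 in the others). *Clec5a*, a myeloid lectin receptor, stood at 18.1 and 35.3 CPM, *Slc16a10* at 16.7 and 32.4, and *Yars* at 16.0 and 34.1.

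Of the 16 ER chaperones 6 were over 1.5-fold higher in CD150high-derived primed cells and 0 lower, with a median log2 ratio of 0.53 against 0.30 in the other kept cells. *Hsp90b1* stood at 661 and 1086 CPM (log2 ratio 0.72, 0.64 to 0.80), *Hspa5* at 594 and 932 (0.65, 0.57 to 0.74), and *Creld2* at 39.7 and 70.5 (0.83, 0.50 to 1.16). *Sec61b* (-0.01) and *Ppib* (-0.03) did not share the difference. The list was above that of CD150low-derived cells in each of the 6 ranges of *Elane* plus *Ctsg*. Cytosolic chaperones had a median of 0.40 (0.05 in the others) with 1 of 12 over 1.5-fold higher, *Hsph1* (35.5 and 66.8 CPM), and glycolysis genes 0.28 (0.05).

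Immediate early genes, which cells induce within minutes of a stimulus, were lower in CD150high-derived primed cells. Of 10 in a list drawn up with these data known, 9 were over 1.5-fold lower, with a median log2 ratio of -1.33, and -1.10 in the other kept cells. *Fos* stood at 58.8 and 5.16 CPM in primed and 52.2 and 3.98 CPM in other cells, *Jun* at 151 and 43.3 against 230 and 71.3, *Jund* at 89.1 and 41.3 against 149 and 86.7, and *Ier3* at 38.3 and 19.8 against 47.3 and 27.3. *Junb* was the exception (58.5 and 56.2 CPM). The difference was thus present in both classes of cells of the libraries.

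Genes named by the same rule as lower in CD150high-derived primed cells included *S100a8* (479 and 141 CPM, log2 ratio -1.76, and -1.83 in the others) and *Hlf* (37.9 and 13.5, log2 ratio -1.49, and -0.88 in the others). *Ctla2a* (308 and 124), *H2ac6*, *Myct1*, *Lsp1* and *Wfdc17* were the rest, and *Wfdc17* rested to 43.4% on 1 CD150low-derived cell. Higher in CD150high-derived cells was the platelet chemokine *Pf4* (7.31 and 77.7 CPM), but 219 of its 271 UMIs lay in 1 cell of 91096 UMIs. *Pf4* was also higher in the other kept cells of that library (215 and 582 CPM, log2 ratio 1.44). *Cxcl9* had 0 UMIs in CD150low-derived primed cells and 64, 46, 41 and 5 UMIs in 4 CD150high-derived cells.

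**Figure D4:**
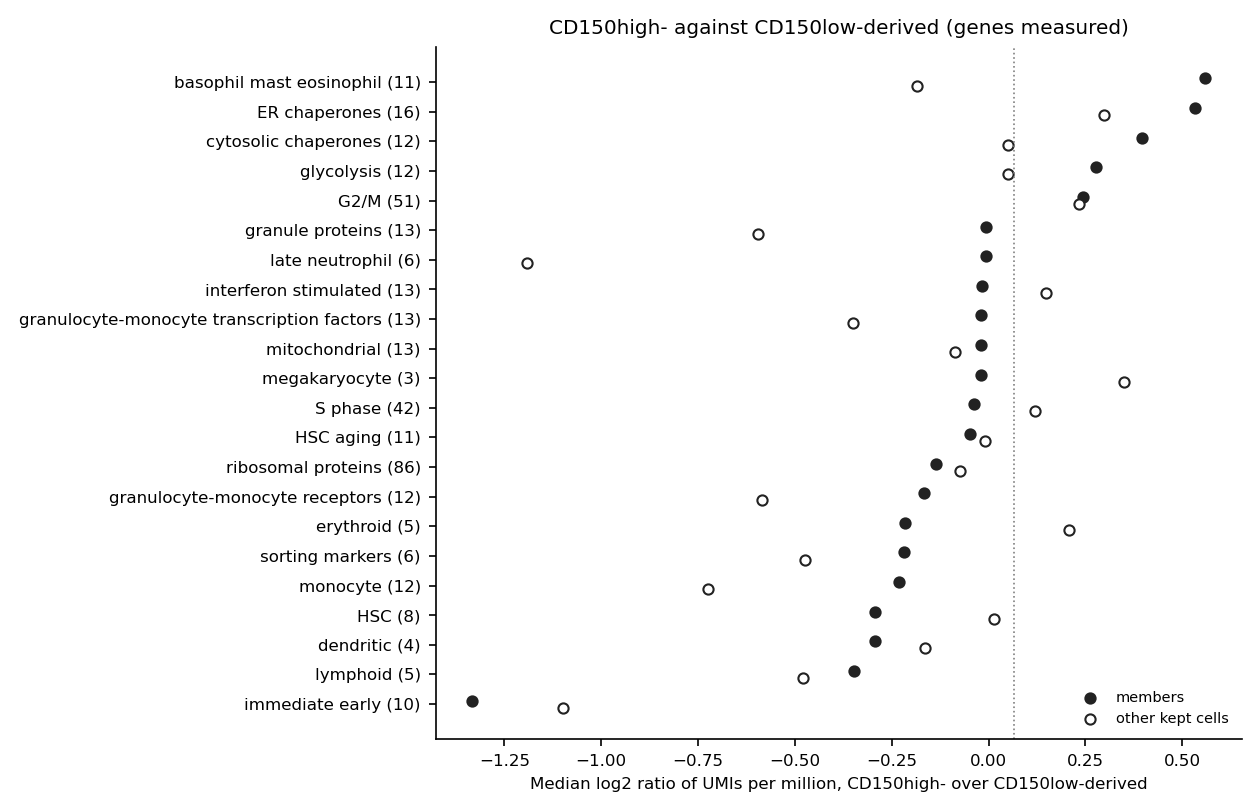
The x axis is the median log2 ratio of CPM in CD150high- over CD150low-derived cells for each gene list, filled for primed cells (members) and open for the other kept cells, with the number of genes measured in brackets and the median of all genes in primed cells (0.07) as the dotted line. Granule proteins lie at -0.01 in primed and -0.60 in other cells, ER chaperones at 0.53 and 0.30, and immediate early genes at -1.33 and -1.10.

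Most of the other genes named as higher in CD150high-derived primed cells are those of basophils and mast cells, such as *Mcpt8* (337 and 717 CPM), *Ms4a2* (16.7 and 68.8) and *Fcer1a* (35.5 and 103), both chains of the IgE receptor, with *Cd200r3*, *Rnase12* and *Csrp3*. Of the 11 basophil, mast cell and eosinophil genes measured of 12 listed, 4 were over 1.5-fold higher and 0 lower, with a median log2 ratio of 0.56 (-0.19 in the other kept cells). None of the list had 0 UMIs in primed cells. Its sum was 1858 CPM in CD150low- and 2490 CPM in CD150high-derived primed cells, and *Prg2* was its most abundant gene (mean 580 CPM).

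Most UMIs of *Mcpt8*, *Prss34*, *Ms4a2*, *Epx* and *Prg2* lay in few cells. With a threshold chosen after the values were seen, at least 10 UMIs of *Mcpt8*, *Prss34*, *Ms4a2*, *Epx* and *Prg2* per 10000, 5 of 89 CD150low-derived primed cells (5.62%, exact 95% interval 1.85 to 12.6) and 12 of 68 CD150high-derived primed cells (17.6%, 9.47 to 28.8) were rich in them. Outside the primed cells 4 CD150low- and 1 CD150high-derived kept cells passed the same threshold, so that the libraries held 9 of 2406 (0.374%, 0.171 to 0.709) and 13 of 1933 (0.673%, 0.359 to 1.147) such cells. The lowest of these held 129 and 16.2 per 10000, and the highest of the remaining primed cells 5.35 and 2.99. In each library 1 was an eosinophil-gene cell, with 1956 *Prg2* and 96 *Epx* UMIs in the CD150low- and 1673 and 155 in the CD150high-derived library. The other 4 and 11 held *Mcpt8* or *Prss34*.

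The basophil-gene cells entered through *Ctsg*. *Elane* was found in 0 of 4 CD150low-derived and 4 of 11 CD150high-derived ones, while *Ctsg* stood in all rich cells at 4658 and 3935 CPM, near the 4257 and 4416 CPM of the remaining primed cells. *Prtn3* stood at 658 and 677 CPM in rich and 5437 and 5914 CPM in remaining cells. *Gata2*, a factor of basophil and mast cell progenitors, stood at 819 and 498 CPM against 28.2 and 34.6, *Cpa3* at 4255 and 2275 against 42.2 and 11.5, and *Csf2rb* at 362 and 274 against 32.9 and 35.2. *Irf8* had 0 UMIs in rich cells of both libraries. *Gfi1* had 0 UMIs in 5 CD150low-derived rich cells and was found in 2 of 12 CD150high-derived ones. The rich cells held fewer UMIs, with a median of 12592 and 16259 against 31718.5 and 50208 in the remaining primed cells.

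Without these 17 of 157 cells, the shares were 3.50% and 2.92% and their difference -0.583 percentage points. The granule median stayed near 0 (-0.02) and the ER chaperone median at 0.54, whereas the median of the basophil, mast cell and eosinophil list turned to -0.26. The cells left out, 5 CD150low- and 12 CD150high-derived, had been chosen on basophil and eosinophil genes. A fall of that list was thus set in part by the filter. Of the markers that the definition did not use, *Mpo* was found in 83 of 84 and 56 of 56 remaining cells and *Ms4a3* in 81 and 55. *Elane*, which the definition did use, was found in 58 and 41. Of all 157 primed cells, 15 passed this threshold as basophil-gene and 2 as eosinophil-gene cells, and the others were not free of such transcripts, with a *Mcpt8* UMI in 49 of 84 and 50 of 56 remaining cells, at 71.5 and 61.1 CPM.

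The replicated bulk libraries, which the definition did not use, were read for the same genes in the donor cells. In old HSCs sorted by CD150 into G1 (lowest) and G4 (highest) from the same 3 mice, limma called 2 genes higher (0.0174% of 11466) and 1 lower (0.00872%) in G4 at an adjusted p-value under 0.05 and over 2-fold, with 738 genes at an unadjusted p under 0.05. Of the granule proteins 9 of 13 were tested, 0 were called in either direction and 4 had an unadjusted p under 0.05. Of 6 receptors tested and 11 transcription factors tested, 0 were called by limma, with 1 and 0 at an unadjusted p under 0.05. The genes called higher were *Sbspon* and *Clu*, both of the HSC aging list, which was drawn up with these data known and is no independent evidence. With the mouse as a block, 0 genes were called higher and 1 lower, and the adjusted limma p was 0.0686 for *Sbspon* and 0.112 for *Clu*.

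*Elane* and *Ctsg* were at or near 0 in the bulk HSCs. *Elane* reached at most 0.556 FPKM (fragments scaled to gene length and library total) in G1 and G4, *Ctsg* was listed at 0 in all of these libraries, and *Mpo* was listed at 0 in G4 and at 0.577, 0 and 0.891 FPKM in G1. *Prtn3* stood at 733, 729 and 665 FPKM in G4 and 546, 610 and 655 in G1, so that the groups did not overlap, as in 14.5% of all genes tested, but the log2 difference of 0.23 (SE 0.15) had an adjusted limma p of 0.795. *Prtn3* was therefore abundant before transplantation in cells in which its neighbour *Elane* was hardly detected.

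*Serpinb1a* was lower in every G4 library. It stood at 17.4, 20.4 and 14.9 FPKM in G4 and 49.0, 54.9 and 67.5 FPKM in G1, without overlap. The log2 difference was -1.64 (SE 0.21), with an adjusted limma p of 0.1003, which is not past the threshold. *Nkg7*, a granule membrane protein of cytotoxic and myeloid cells, stood at 23.9, 14.7 and 26.3 FPKM in G4 and 44.2, 84.7 and 151 in G1 (log2 difference -1.93, SE 0.42, adjusted limma p 0.397). *Ms4a3* stood at 0, 0.26 and 0.23 FPKM in G4 and 3.55, 1.03 and 6.505 in G1 (adjusted limma p 0.490). *Slamf1* itself stood at 102.3, 79.3 and 89.0 against 29.4, 29.2 and 15.2 FPKM (adjusted limma p 0.147), so the gene that sorted the groups did not pass either.

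On day 4 after transplantation, donor HSCs of both origins had been sorted again, and replicate numbers there carry no stated pairing. Limma called 0 of 11077 genes (0%) higher and 0 (0%) lower in CD150high HSCs, with 826 at an unadjusted p under 0.05. Of 9 granule proteins tested 0 were called and 4 had an unadjusted p under 0.05. Groups without overlap, in either direction, were found for 13.2% of all genes tested, *Nkg7* among them, at 42.4, 63.3 and 67.0 FPKM in CD150high and 119, 174 and 157 in CD150low HSCs (log2 difference -1.38, SE 0.20, adjusted limma p 0.186). *Serpinb1a* stood at 47.1, 47.9 and 34.0 against 86.0, 73.4 and 74.8 FPKM (log2 difference -0.86, SE 0.18, adjusted limma p 0.300). *Elane* reached at most 0.501 FPKM and *Ctsg* was listed at 0 in all 6 libraries.

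*Prtn3* was between 105 and 191 FPKM on day 4, below every fresh G1 and G4 library, in tables that were made from separate preparations and not tested against each other. *Cd48* stood at 13.4, 16.2 and 25.0 FPKM in CD150high and 42.2, 94.3 and 53.4 in CD150low HSCs, and *Cd34* at 27.9, 20.8 and 8.12 against 72.5, 52.2 and 81.1, neither past the threshold (adjusted limma p 0.282 for each). *Csf3r* stood at 2.10, 1.97 and 2.26 against 8.05, 3.39 and 9.90 FPKM (adjusted limma p 0.491). In bulk samples fewer cells of a type and less RNA per cell cannot be told apart. All 13 macrophage genes passed the filter on day 4, led by *C1qb* (mean 71.7 FPKM in CD150high and 51.8 in CD150low), with a summed mean of 308 and 254 FPKM. Of these, 0 were called by limma and 0 had an unadjusted p under 0.05.

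**Figure D5:**
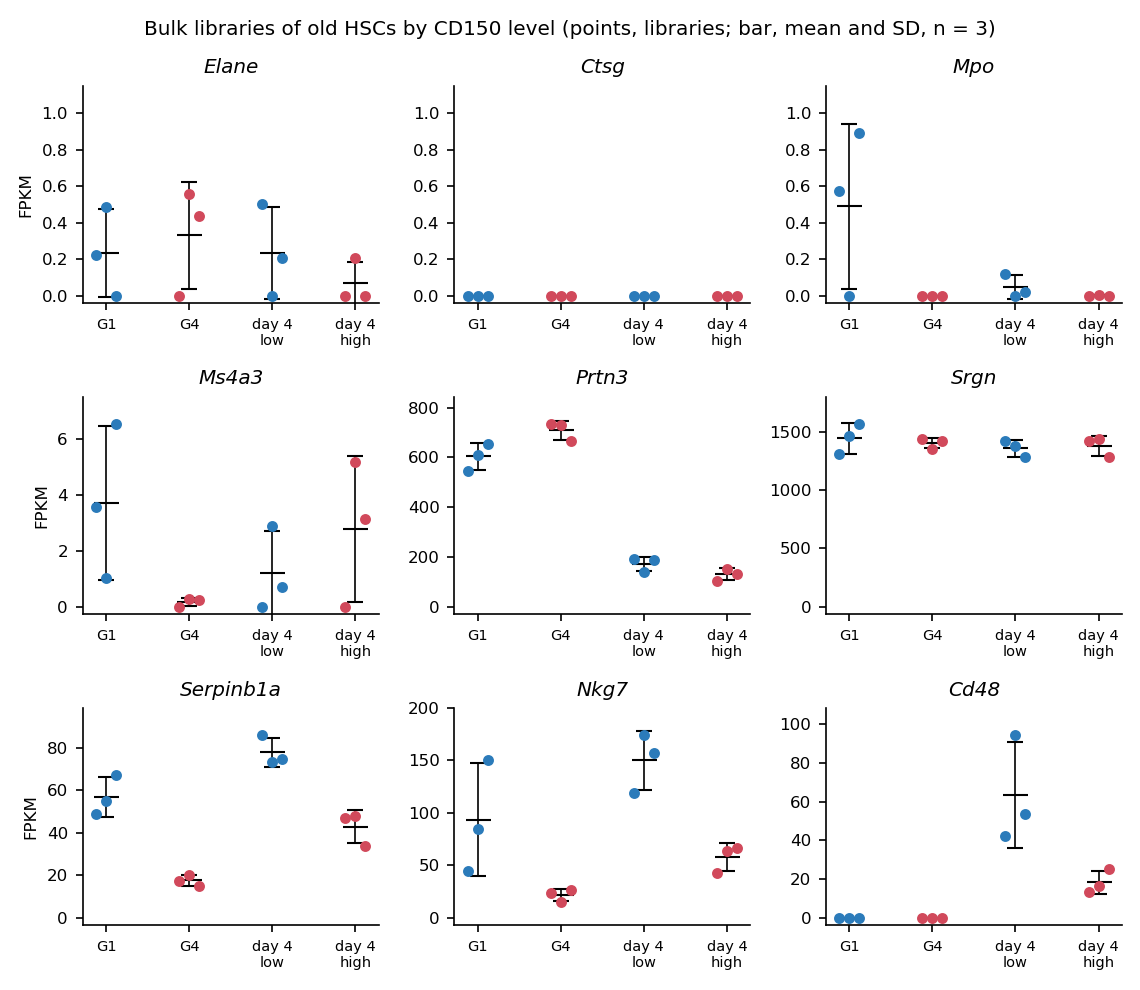
Each panel shows the FPKM of 1 gene (linear axis) in 3 libraries per group (points) with mean and SD, for G1 and G4 of fresh old HSCs and for CD150low and CD150high HSCs on day 4. Elane, Ctsg and Mpo stay under 1 FPKM, Prtn3 and Srgn are abundant, and Serpinb1a and Nkg7 are lower in every library of high CD150 than in every library of low CD150 of the same time.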

How the data were processed

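Primed cells were taken from 2 of 4 single-cell libraries, with 12 of 24 bulk libraries for comparison, among 80 samples in all. Single-cell files hold UMI counts, not normalized, that the authors obtained with Cell Ranger 3.0.2 on mm10 for protein-coding genes. The day 14 libraries held 52949927 UMIs in 3567 barcodes (CD150low) and 71292583 in 9631 (CD150high). The filter left 2406 and 1933 cells, the first as the study states and the second slightly above its number. CPM were computed from UMIs summed over cells, with exact Poisson intervals for levels, exact binomial intervals for shares and ratios, and Newcombe's for differences of shares, all at 95%. Fresh HSCs were kept at 800 detected genes. Doublets were called with Scrublet (scanpy 1.11.5, expected rate 0.06).

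Bulk tables were deposited as FPKM, from Hisat2 alignments to mm10 and counting without strand, so values of overlapping genes are uncertain. The tool behind the FPKM is not given in the sources used here, and depth is unknown. All 13 mitochondrial genes are listed at 0. Comparisons used limma 3.58.1 (trend) in R 4.3.3 on log2(FPKM + 1), so folds of low genes are understated, keeping genes whose mean reached 1 FPKM in either group, with Benjamini-Hochberg adjustment over all of them. G1 and G4 came from the same 3 mice per the labels, and same-mouse libraries correlated at 0.00164, 0.0944 and 0.0864 in their deviations from the group mean. Nothing says that day 4 libraries came from separate animals, so p-values there measure the spread between libraries, which may be technical.

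Members, gene lists, thresholds and motifs were chosen with earlier results of these data known. Named were list genes, the 15 highest and 8 lowest of primed over other cells and the 12 highest and lowest of CD150high over CD150low (both at a mean of at least 20 CPM), and the 10 best correlated with a UMI in at least 20% of primed cells; genes beside the granule genes and the lowest correlations were named after their values were seen. Alternatives were other thresholds, filters, scalings, a thinning of cells, a pseudocount of 0.1, a replicate block and each bulk library left out. The scripts were tested on simulated data. No column of another series was present.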

Additional observations from a re-analysis of the deposited data

Results flagged for a closer look

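*Cxcl9*, an interferon-induced chemokine, stood on opposite sides of the other kept cells in the libraries. Its log2 ratio of primed over other cells was 5.25 in the CD150high-derived library (44.7 against 1.17 CPM), whereas CD150low-derived primed cells held 0 UMIs against 3.62 CPM in the others. Of 8160 genes compared it was the 1 gene over 2-fold apart in opposite directions. The difference was not tested, with 1 library per group, and 4 cells held all of its UMIs in primed cells. Among the other kept cells, 0.302% of CD150low- and 0.912% of CD150high-derived cells held a *Cxcl9* UMI. At so low a frequency, 0 UMIs in CD150low-derived primed cells cannot be read as a lower level.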

How the results depend on the processing

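The difference in share, CD150high minus CD150low, lay between -1.26 and 0.208 percentage points under 9 alternatives. Shares moved to 6.07% and 4.81% (CD150low and CD150high) at 5 UMIs per 10000, 2.12% and 2.33% at 20, and 2.45% and 2.38% with at least 1 UMI of each gene. Genes over 1.5-fold higher between origins numbered 343 as a mean over cells and 145 with a median-of-ratios size factor, and 397 were lower with granule, mitochondrial and ribosomal genes left out of the total. Higher and lower counts were 27 and 16 at 50 CPM, 374 and 363 at 5 CPM, 435 and 263 at a threshold of 20, and 782 and 515 with cells thinned; the cause was not tested. List medians that reversed were the receptors (0.0843 as a mean over cells, 0.182 thinned), erythroid genes (0.00214 as a mean over cells, 0.156 at a threshold of 20, 0.339 thinned), dendritic genes (0.0182 at 20) and basophil genes (-0.261 without the cells rich in them, an alternative chosen after seeing the data). Against other kept cells, 93 genes were higher and 92 lower at 50 CPM, 586 lower at 5 CPM, and 314 and 597 at a threshold of 20.

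In G4 against G1, 0 genes were called higher without a filter on low values and 0 with the mouse as a replicate block, which ended the calls of *Sbspon* and *Clu* (adjusted limma p 0.069 and 0.112). Leaving out single libraries gave 0 to 40 genes higher and 0 to 12 lower, with the highest counts without the third G1 library (40 and 12). For 37 granule, receptor, transcription factor, monocyte, neutrophil and sorting genes, 332 alternative results were obtained in G4 against G1. In 4 of these a gene was called that the main comparison had not called. On day 4 the numbers 0 to 2 and 0 to 8 were obtained, with 8 lower without the third CD150low library. The day 4 block on replicate number, which pairs nothing by label (same-number correlations -0.00651, -0.0556 and -0.0757), called 1 gene higher and 1 lower, *Nkg7* with an adjusted limma p of 0.013. With 1 library per origin, 157 cells and no bulk read totals, depth limits every value under about 10 CPM.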

Other observations

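Metallothionein 1 (*Mt1*), a gene of the HSC aging list, was high in primed cells of both libraries, at 380 CPM in CD150low- and 477 CPM in CD150high-derived cells against 44.4 and 118 CPM in the other kept cells. Of the 26 genes measured of that list, which was drawn up with these data known, 2 were over 2-fold higher in both libraries, *Mt1* and *Stom*, and 16 were lower. *Nupr1*, of the same list, stood at 2.44 and 10.9 CPM in primed and 27.8 and 93.1 CPM in other cells, and *Gem* at 25.8 and 41.3 against 184 and 203.

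*Dntt*, the template-free polymerase of early lymphoid progenitors, was highest at 1 to under 10 UMIs of *Elane* and *Ctsg* per 10000, with 47.0 CPM in CD150low- and 19.8 CPM in CD150high-derived cells, and had 0 UMIs at 30 and more per 10000. *Flt3* was highest in the same range (58.3 and 35.9 CPM) and stood at 4.69 and 2.77 CPM at 100 and more.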
